A study of Mus musculus with 6 samples.

Results

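The genes described here encode the dynein arms of the motile axoneme, the proteins that dock those arms and the factors that assemble them. They were chosen by gene symbol: every row of the count table whose symbol begins with Dnah, Dnai, Dnal, Dnaaf or Odad and continues as the families' numbering does, together with Zmynd10, Spag1, Ccdc39, Ccdc40 and Ccdc103. This gave 43 of 50763 rows. The family was picked from the differences between sKO and WT libraries seen in these same data, so the differences below are a description of it and are not independent evidence. The groups were 3 testis samples labelled sKO, with Rif1 deleted conditionally in germ cells before meiosis, and 3 labelled wild type (WT), all from mice at postnatal day 14. The sources used here name neither the driver of the deletion nor the deleted exons or the strain. Nothing states that the samples came from separate animals, and the tests therefore rest on a spread between samples that may be technical. Pairs within a group differed by more than counting error, with chi-square per degree of freedom of 4.45 to 20.2. These values do not tell separate animals from separate preparations.

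Axonemal dyneins are the motors that make motile cilia and sperm flagella beat. Outer arms mainly set beat frequency and power, and inner arms shape the bend. Each arm is put together from heavy, intermediate and light chains in the cytoplasm with the help of dedicated assembly factors, and is then fixed to the doublet microtubules by docking proteins. In the testis these transcripts accumulate in germ cells from meiotic prophase onwards, ahead of the building of the flagellum in spermatids, and loss of many of them in humans causes primary ciliary dyskinesia or male infertility.

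Total counts were 16605787 to 18296594 in sKO libraries and 15941672 to 18156109 in WT libraries, so 3 counts correspond to at most 0.188 CPM (read counts scaled to library size). The targeted gene, Rif1 on chromosome 2, stood at 42.0, 46.4 and 49.2 CPM in sKO libraries 1 to 3, against 96.5, 83.7 and 129 CPM in WT libraries 1 to 3. Testis markers were present in every library, with summed levels of 10 Sertoli cell genes of 5298 to 6387 CPM in sKO and 4259 to 5089 CPM in WT, and of 5 general germ cell genes of 1058 to 1397 CPM in sKO and 1462 to 2098 CPM in WT. Of the libraries, WT 1 and sKO 3 stand apart from the others of their group in genes of meiotic prophase: for 13 tested genes of pachytene spermatocytes the median level relative to the WT mean (log2) was -2.31, -2.19 and -1.12 in sKO libraries 1 to 3 and 0.66, -0.11 and -0.47 in WT libraries 1 to 3.

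The promoters of 32 of the 43 genes were available from RefSeq (GRCm38.p6), and parts of them are shown because the inner arm heavy chains Dnah7a, Dnah7b and Dnah7c, whose transcripts fell in sKO, are copies whose upstream sequences share a stretch. RFX transcription factors, regulators of ciliary genes, bind the X-box, a pair of inverted half-sites. The letters GTTGC followed by GCAAC with 0 to 4 bases between them, a search chosen after these promoters were read, occurred within 250 bases before the start of 5 of the 32 genes (15.6%) and of 0.429% of the 27025 genes with a promoter in that source. Without the 3 Dnah7 copies it occurred in 2 of 29 (6.90%). The pair reads alike on both strands. Capitals mark it in these sequences, written 5′ to 3′ along the gene.
Dnah7a (chr1:53706814-53706856, minus strand): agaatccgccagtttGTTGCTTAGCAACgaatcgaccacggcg
Dnah7b (chr1:46066814-46066852, plus strand): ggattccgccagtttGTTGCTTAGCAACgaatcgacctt
Dnah7c (chr1:46425434-46425476, plus strand): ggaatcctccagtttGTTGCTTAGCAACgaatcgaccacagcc
Dnah6 (chr6:73221640-73221682, minus strand): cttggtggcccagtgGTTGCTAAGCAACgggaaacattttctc
Dnai2 (chr11:114727371-114727413, plus strand): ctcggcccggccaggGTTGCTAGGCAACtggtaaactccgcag
The pair starts 57, 24 and 69 bases before the annotated start in Dnah7a, Dnah7b and Dnah7c, 36 bases before it in Dnah6 and 33 bases before it in Dnai2. These 5 genes did not move alike: Dnah7a, Dnah7b and Dnah7c fell and Dnah6 had a lower estimate, whereas Dnai2 had a higher one. Over the whole 250 bases the promoters of Dnah7a and Dnah7c were identical at 78.4% of aligned positions, those of Dnah7a and Dnah7b at 64.8% and those of Dnah7b and Dnah7c at 55.8%. For 26 of 31 promoters checked, bases 11 to 30 after the start lay in a GENCODE transcript of the gene, on the same strand. Some annotated starts are therefore uncertain.

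The other letters were searched on both strands. The X-box half-site GTTGCC was found in 6 of 32 genes (18.8%), in 3 of 29 (10.3%) without the Dnah7 copies and in 11.8% of all genes, and the longer GTTGCCATG, which contains it, in 0 of 32 and 0.733%. The MYB site TAACNG was found in 11 of 32 (34.4%), in 8 of 29 (27.6%) without these copies and in 22.3% of all genes. Its share was 33.3% among the 12 genes with a log2 fold change of -1 or below and 35.0% among the other 20. A match describes the letters and is not a site of binding.

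The design compares sKO with WT testes at one age. Most of the family was lower in sKO. Of 43 genes, 42 passed the filter on low counts (Odad2 did not). Estimates (sKO over WT) were below 0 for 38 of the 42 and for 8437 of all 18860 genes tested. The family's median log2 fold change was -0.67, against 0.03 over all genes tested. In the edgeR quasi-likelihood fit across all genes, 9 of the 42 fell, at an adjusted p under 0.05, where 1.27% of all tested genes did. They were Zmynd10, Dnai3, Dnah7a, Dnah7c, Odad3, Dnah1, Dnai1, Dnaaf1 and Dnah7b. The same fit called 0 of the 42 higher, where 0.0318% of all genes were, and none was higher with DESeq2 or limma-voom, or in the edgeR fit before adjustment at the same threshold. For 26 of the 42 every sKO library lay below every WT library, where 10.7% of all tested genes did, and for 0 every sKO library lay above, where 9.58% did. Because the family was picked on this contrast, nothing further is read from these shares.

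The number of calls moved with the tool and with single libraries. DESeq2 called 21 of the family lower, where 3.22% of all genes were, and limma-voom called 0, with 24 lower at an unadjusted p under 0.05, where 8.47% of all genes were. edgeR called 15 without sKO library 3 (3.23% of all genes), 5 without WT library 1 (0.524%) and 16 without WT library 3 (2.58%). Without sKO library 1, sKO library 2 or WT library 2 it called 0 of the family and 0.0% of all genes. The median of the family was steadier, between -0.78 and -0.55 over the same 6 fits.

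**Figure D1:**
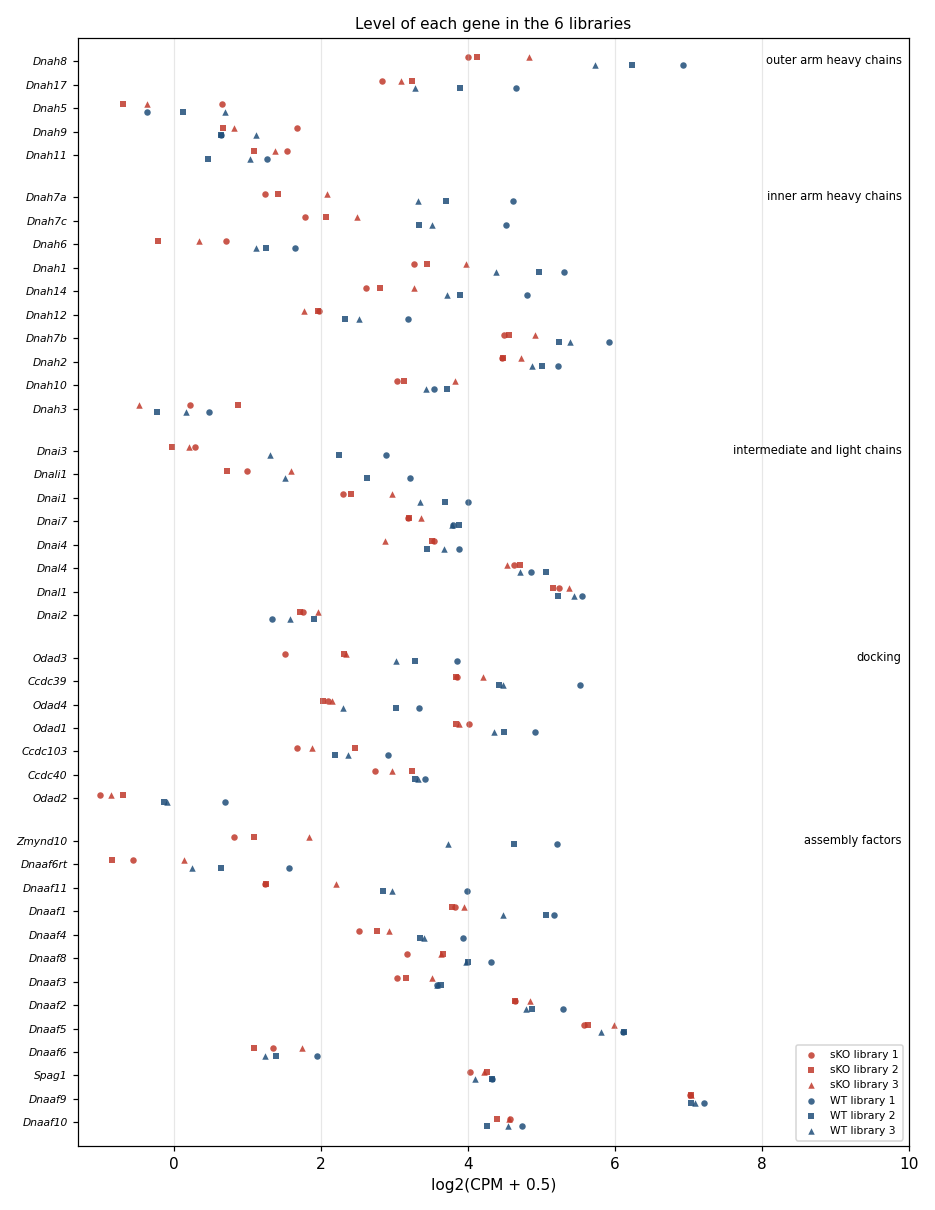
Level of each of the 43 genes as log2(CPM + 0.5) in the 3 sKO libraries (red, upper) and the 3 WT libraries (blue, lower), ordered by role and by fold change within a role. The sKO points of Zmynd10 (1.26 to 3.08 CPM) lie far to the left of its WT points (12.7 to 36.8 CPM), whereas those of Dnaaf10 and Dnal1 overlap.

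Of the 5 outer arm heavy chains, which carry the ATPase motor of the outer arm, edgeR called 0 in either direction. At an unadjusted edgeR p under 0.05, 2 were lower, as were 1611 of 18860 tested genes. DESeq2 called 2 lower, where 3.22% of all genes were. Those called by DESeq2 were Dnah8 and Dnah17, the outer arm heavy chains of the sperm flagellum, and Dnah5, Dnah9 and Dnah11, those of multiciliated cells, were at low levels in both groups. Dnah8 had 15.6, 17.0 and 27.9 CPM in sKO libraries 1 to 3, against 122, 74.8 and 52.7 CPM in WT libraries 1 to 3. Every sKO library was below every WT library, and the log2 fold change was -2.04 (SE 0.37), which edgeR did not call and DESeq2 did. Dnah17 had 6.61, 8.96 and 8.03 CPM in sKO, against 24.7, 14.4 and 9.27 CPM in WT. Its groups came close to each other, at 8.96 CPM in sKO library 2 and 9.27 CPM in WT library 3, and its log2 fold change of -1.04 (SE 0.31) was called by DESeq2 and not by edgeR.

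Per kilobase of transcript, which allows levels of different genes to be compared, Dnah8 averaged 1.21 CPM per kb in sKO and 4.98 CPM per kb in WT and Dnah17 0.525 CPM per kb in sKO and 1.08 CPM per kb in WT. The other outer arm heavy chains lay far lower, at 0.0315 (Dnah5), 0.122 (Dnah9) and 0.145 CPM per kb (Dnah11) in sKO and 0.0424, 0.0919 and 0.103 CPM per kb in WT. Dnah5 had 18, 2 and 5 counts in sKO libraries 1 to 3 and 5, 10 and 18 counts in WT libraries 1 to 3. Dnah9 had 45, 18 and 23 counts in sKO and 19, 18 and 27 in WT, and Dnah11 had 40, 27 and 38 counts in sKO and 34, 15 and 25 in WT. The groups of all 3 overlapped, with log2 fold changes of -0.42 (SE 0.73), 0.41 (SE 0.40) and 0.49 (SE 0.34).

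Within sKO each of these 3 was highest in library 1, which also had the highest level of genes of the neighbouring epididymis. The summed level of 10 epididymal genes was 225 CPM in sKO library 1, 23.1 and 4.78 CPM in sKO libraries 2 and 3 and 6.11 to 31.3 CPM in WT, with Lcn9 at 0 in all 6. The summed level of 11 genes of multiciliated cells, of which 0 were at 0 in every library, was 35.6 to 43.1 CPM in sKO and 35.3 to 40.1 CPM in WT. Tppp3 made up most of it, and without that gene the sum was 11.4 to 13.8 CPM in sKO and 11.8 to 12.8 CPM in WT. Of the defining regulators of these cells, Mcidas was at 0 to 0.18 CPM in sKO and 0.17 to 0.68 CPM in WT and Gmnc at 0 to 0.30 CPM in sKO and 0.06 to 0.25 CPM in WT, and Foxj1 was at 2.54 to 3.60 CPM in sKO and 2.13 to 3.11 CPM in WT. Within sKO the genes of this list other than Deup1, Ccdc78 and Tppp3 were highest in library 1, several on few counts. Sntn had 10, 1 and 1 counts in sKO libraries 1 to 3, Cdhr3 had 9, 1 and 6 and Tmem212 had 6, 0 and 2. In WT libraries 1 to 3 Sntn had 0, 2 and 0 counts, Cdhr3 had 4, 3 and 2 and Tmem212 had 0, 0 and 2. Deup1 (7, 15 and 22 counts) and Ccdc78 (33, 44 and 42 counts) were lowest in sKO library 1. Without sKO library 1 the log2 fold change of Dnah9 was -0.12 and that of Dnah11 was 0.35. The part of the epididymal RNA in these values was not tested.

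**Figure D2:**
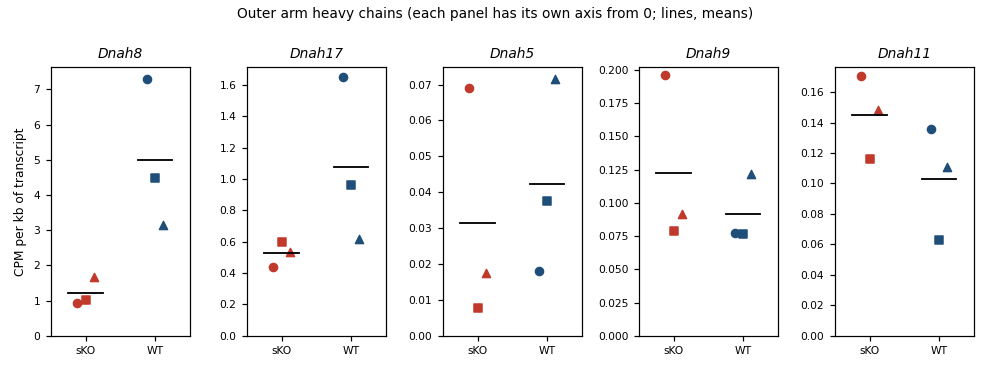
Level of the 5 outer arm heavy chains in CPM per kb of transcript in sKO (left, red) and WT (right, blue), with circles, squares and triangles for libraries 1, 2 and 3 and lines for means; each panel has its own axis. Dnah8 reaches 4.98 CPM per kb on average in WT and 1.21 in sKO, and the 3 heavy chains of multiciliated cells stay below 0.2.

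The inner arm heavy chains held the largest number of calls, 4 of 10, where 1.27% of all tested genes were called lower. Apart from Dnah1, these calls were the copies Dnah7a, Dnah7b and Dnah7c, which may share reads. Estimates were lower for 9 of the 10, and their median was -1.14 on the log2 scale. The mouse copies Dnah7a, Dnah7b and Dnah7c, single-headed inner arm heavy chains on chromosome 1, were all called. Dnah7a had 1.86, 2.18 and 3.74 CPM in sKO libraries 1 to 3, against 23.9, 12.5 and 9.51 CPM in WT libraries 1 to 3. Its log2 fold change was -2.55 (SE 0.38), without overlap of the groups. Dnah7c had 2.94, 3.69 and 5.11 CPM in sKO, against 22.4, 9.60 and 10.9 CPM in WT, with a log2 fold change of -1.87 (SE 0.34). Dnah7b, with the smallest fold change of the copies (-0.90, SE 0.18), had the highest level per kilobase, 2.03 CPM per kb in sKO and 3.77 CPM per kb in WT. Its libraries stood at 22.1, 23.1 and 29.6 CPM in sKO and 60.2, 37.5 and 41.6 CPM in WT. Reads shared between these near-identical genes could have been split or dropped in counting, so the levels of the single copies are uncertain. Their sum was 31.4 ± 6.14 CPM in sKO and 76.1 ± 26.4 CPM in WT (SD, n = 3 each).

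Dnah1, an inner arm heavy chain whose loss in humans gives short and irregular sperm flagella, was also called. It had 9.13, 10.4 and 15.3 CPM in sKO libraries 1 to 3, against 39.3, 30.9 and 20.5 CPM in WT libraries 1 to 3. The groups did not overlap, and the log2 fold change was -1.38 (SE 0.26). Dnah6 had a similar estimate, -1.44 (SE 0.41), that was not called, on 6 to 19 counts per sKO library and 27 to 47 per WT library. Dnah14 had 5.65, 6.48 and 9.13 CPM in sKO, against 27.6, 14.4 and 12.7 CPM in WT. Its groups did not overlap either, and its log2 fold change of -1.36 (SE 0.30) was called by DESeq2 and not by edgeR. Dnah12 had an estimate of -0.92 (SE 0.26).

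Dnah2 and Dnah10, the heavy chains of the double-headed inner arm, had the smallest estimates of the inner arm heavy chains together with Dnah3. Dnah2 had 21.7, 21.7 and 26.0 CPM in sKO, against 37.0, 31.8 and 28.9 CPM in WT, without overlap and with a log2 fold change of -0.49 (SE 0.13) that DESeq2 called and edgeR did not. Dnah10 had 7.69, 8.30 and 13.7 CPM in sKO and 11.1, 12.6 and 10.3 CPM in WT, so sKO library 3 lay above all WT libraries. Dnah3 was barely detected, with 11, 22 and 4 counts in sKO libraries 1 to 3 and 16, 6 and 10 counts in WT libraries 1 to 3, and its estimate was 0.22 (SE 0.60).

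**Figure D3:**
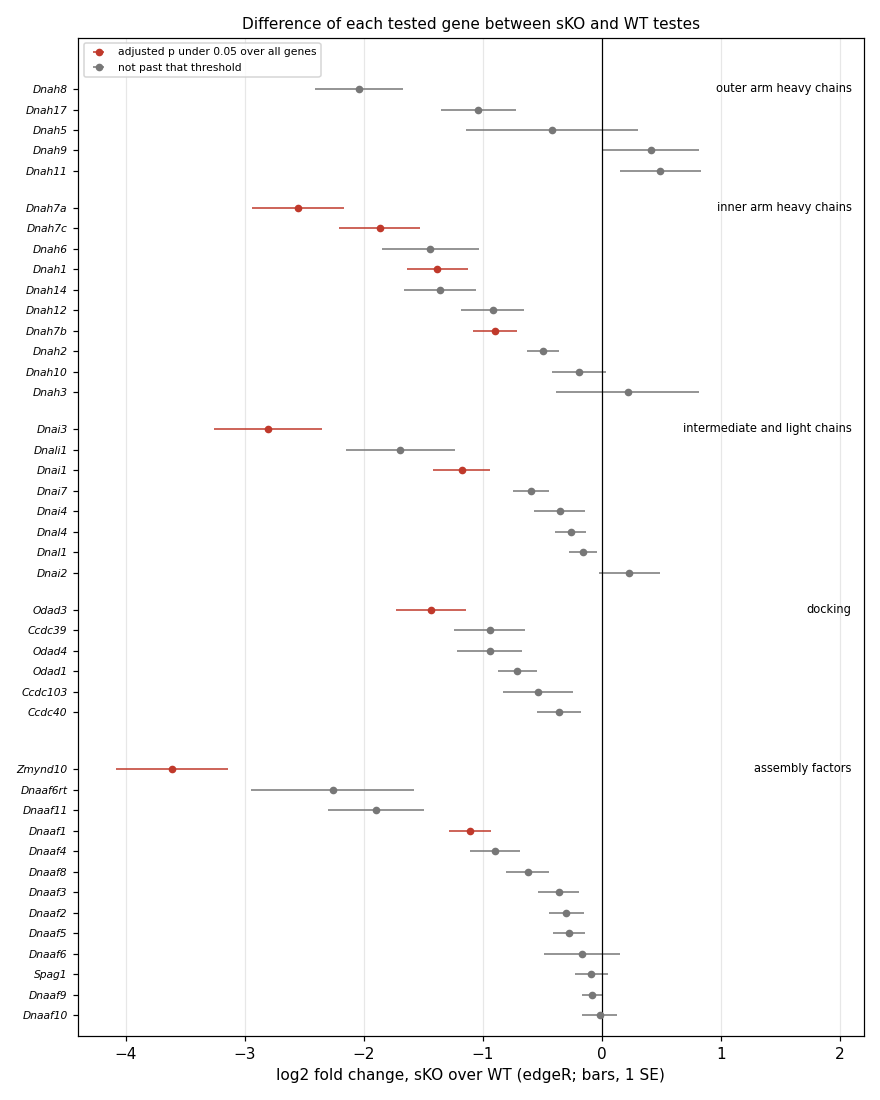
Log2 fold change of sKO over WT for the 42 tested genes, with bars of 1 SE, by role; red marks the 9 genes past an adjusted p of 0.05 over all genes and grey the others. Estimates run from -3.61 for Zmynd10 to 0.49 for Dnah11.

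Intermediate and light chains anchor the heavy chains and regulate them. Of 8 tested, 2 were called lower, where 1.27% of all tested genes were. Dnai3, an intermediate chain of the double-headed inner arm, had 0.721, 0.484 and 0.660 CPM in sKO libraries 1 to 3, against 6.90, 4.24 and 1.99 CPM in WT libraries 1 to 3. Its log2 fold change was -2.80 (SE 0.45), on 8 to 12 counts per sKO library, and the groups did not overlap. Dnai1, an intermediate chain of the outer arm, had 4.44, 4.84 and 7.31 CPM in sKO, against 15.5, 12.4 and 9.70 CPM in WT, with a log2 fold change of -1.18 (SE 0.24).

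Dnai2, the partner of Dnai1 in the outer arm, did not move with it. It had 2.88, 2.79 and 3.41 CPM in sKO and 2.02, 3.24 and 2.49 CPM in WT, with overlapping groups and a log2 fold change of 0.23 (SE 0.26). The difference between the 2 genes was not tested. Dnali1, a light intermediate chain of inner arms, had a log2 fold change of -1.69 (SE 0.46) that DESeq2 called and edgeR did not. Its groups overlapped, the highest sKO library at 2.53 CPM and the lowest WT library at 2.36 CPM. Dnai7 had 8.59, 8.66 and 9.84 CPM in sKO, against 13.5, 14.3 and 13.2 CPM in WT, without overlap and with an estimate of -0.60 (SE 0.15) that DESeq2 called.

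The remaining chains differed less. Dnai4, the other intermediate chain of the double-headed inner arm, had 11.2, 10.9 and 6.82 CPM in sKO and 14.2, 10.4 and 12.3 CPM in WT, with overlapping groups. Dnal4 had 24.3, 25.8 and 22.8 CPM in sKO and 28.5, 33.0 and 25.8 CPM in WT, where the nearest libraries were almost level. Dnal1, the leucine-rich light chain of the outer arm, had 37.2, 35.2 and 41.0 CPM in sKO and 46.5, 37.0 and 43.1 CPM in WT. Their log2 fold changes were -0.35 (SE 0.21), -0.26 (SE 0.13) and -0.16 (SE 0.12), and none was called by edgeR or DESeq2.

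All 6 tested docking genes had lower estimates, between -1.44 and -0.36, and 1 was called, where 1.27% of all tested genes were called lower. Odad3, a subunit of the outer arm docking complex, had 2.34, 4.48 and 4.56 CPM in sKO libraries 1 to 3, against 14.0, 9.19 and 7.65 CPM in WT libraries 1 to 3, with a log2 fold change of -1.44 (SE 0.30). Odad1, another subunit, had 15.6, 13.9 and 14.3 CPM in sKO, against 29.7, 21.9 and 20.0 CPM in WT, with a log2 fold change of -0.71 (SE 0.16). Odad4, a further component, had 3.78, 3.57 and 3.96 CPM in sKO, against 9.65, 7.66 and 4.42 CPM in WT, with -0.94 (SE 0.27). Neither gene's groups overlapped, and DESeq2 called both and edgeR neither. Odad2, which missed the low-count filter, had 0, 2 and 1 counts in sKO and 20, 7 and 7 counts in WT. Without the filter edgeR called it lower, among 24 of the family and 2.83% of all genes, and DESeq2 did not call it.

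Ccdc39 and Ccdc40 form together the molecular ruler that spaces inner arms and radial spokes, and their estimates differed in size. Ccdc39 had 14.0, 13.9 and 18.03 CPM in sKO, against 45.5, 20.9 and 21.8 CPM in WT. WT library 1 stood well above the other WT libraries, and without it the log2 fold change was -0.48 rather than -0.94. Ccdc40 had 6.19, 8.96 and 7.37 CPM in sKO and 10.1, 9.19 and 9.51 CPM in WT, with a log2 fold change of -0.36 (SE 0.18). Ccdc103, a dynein attachment factor, had -0.54 (SE 0.29) with overlapping groups.

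Assembly factors ranged from almost no difference (Dnaaf10) to the family's lowest estimate (Zmynd10). Of 13, 2 were called, where 1.27% of all tested genes were called lower, and the median log2 fold change was -0.36. Zmynd10, a cytoplasmic zinc finger protein needed to stabilise dynein heavy chains, had 21, 27 and 56 counts in sKO libraries 1 to 3 and 656, 413 and 205 counts in WT libraries 1 to 3. Its level was thus 1.26, 1.63 and 3.08 CPM in sKO, against 36.8, 24.3 and 12.7 CPM in WT. The log2 fold change was -3.61 (SE 0.47) and ranged over -4.12 to -3.20 in the fits without any single library. Dnaaf11, which binds Zmynd10 and was formerly named Lrrc6, had 1.86, 1.88 and 4.12 CPM in sKO and 15.4, 6.72 and 7.34 CPM in WT. Its log2 fold change of -1.89 (SE 0.40) did not pass with edgeR and did with DESeq2.

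Dnaaf1, a leucine-rich repeat protein, was the other called factor, at 13.6, 13.3 and 14.96 CPM in sKO and 35.5, 33.0 and 21.8 CPM in WT (log2 fold change -1.11, SE 0.18). Dnaaf4 and Dnaaf8 had estimates of -0.90 and -0.62 without overlap. Dnaaf6rt had 3, 1 and 11 counts in sKO and 44, 18 and 11 counts in WT, with a log2 fold change of -2.26 (SE 0.69) that neither edgeR nor DESeq2 called. Without sKO library 3 the value was -3.50 and edgeR called it, and without WT library 1 it was -1.57. Dnaaf6 had 1.63 to 2.86 CPM in sKO and 1.87 to 3.36 CPM in WT. These symbols appear to have moved between genes across annotation releases, so which gene each value stands for is uncertain, and their reads may not have been told apart.

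The remaining assembly factors differed by little. Dnaaf2, a PIH-domain cochaperone, had 24.4, 24.5 and 28.3 CPM in sKO and 38.9, 28.8 and 27.1 CPM in WT, with an estimate of -0.30 (SE 0.15). Dnaaf5, a HEAT-repeat protein, had 47.4, 49.2 and 62.9 CPM in sKO and 68.4, 69.0 and 55.5 CPM in WT, with an estimate of -0.27 (SE 0.13). Both overlapped, with sKO library 3 above WT library 3. Dnaaf3 had -0.36 (SE 0.17), its highest sKO library lying just below the WT libraries. Spag1, Dnaaf9 and Dnaaf10 had -0.09, -0.08 and -0.02, each with SE of 0.15 or less. Dnaaf10, formerly Wdr92, stood at 20.6 to 23.4 CPM in sKO and 18.6 to 26.3 CPM in WT. Dnaaf9 stood at 129, 131 and 131 CPM in sKO and 148, 131 and 136 CPM in WT.

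The family varied within the groups as well. Among the WT libraries, 34 of 42 tested genes were highest in library 1, where 38.6% of all tested genes were, and among the sKO libraries 26 of 42 were highest in library 3, where 38.5% were. The median coefficient of variation was 18.9% in sKO and 27.0% in WT, against 11.9% and 13.8% over all tested genes. The median level of the family relative to the WT mean (log2) was -0.67, -0.71 and -0.61 in sKO libraries 1 to 3 and 0.34, -0.09 and -0.18 in WT libraries 1 to 3. By level, 8 of the 27 genes with a WT mean of at least 10 CPM were called, 1 of 13 between 1 and 10 CPM, and 0 of 2 below 1 CPM. The shares of all tested genes called at these levels were not computed, so no difference between levels is read from these counts.

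Genes of pachytene spermatocytes moved in the same libraries. Their summed level over 15 genes was 304, 346 and 518 CPM in sKO libraries 1 to 3 and 1625, 1093 and 765 CPM in WT libraries 1 to 3. Of the 15, 0 were at 0 in every library. The median log2 fold change was -1.90, and 4 of 13 tested were called lower, where 1.27% of all tested genes were. The called ones were Ybx2, Acr, Tekt1 and Nme5, and the lowest estimate was that of Ldhc, at -4.16. Genes of early meiotic prophase had a median of -0.45 over 16, with 13 lower and 3 higher estimates. Of these, 1 was called lower, Spo11 at -0.99 (SE 0.16), and Msh4 had the lowest estimate, -1.10 (SE 0.27). The 5 general germ cell genes had a median of -0.71, all 5 with lower estimates, and 1 was called lower, Tex101 at -0.75 (SE 0.12). Spermatogonial genes had a median of 0.11 over 14, with 0 called. Medians of the somatic lists were 0.24 for Sertoli cells, 0.32 for Leydig cells, 0.29 for peritubular myoid cells and 0.38 for macrophages. In whole testis fewer cells of a type and less RNA per cell cannot be told apart, and the part of the germ cell makeup in the family's values was not tested.

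**Figure D4:**
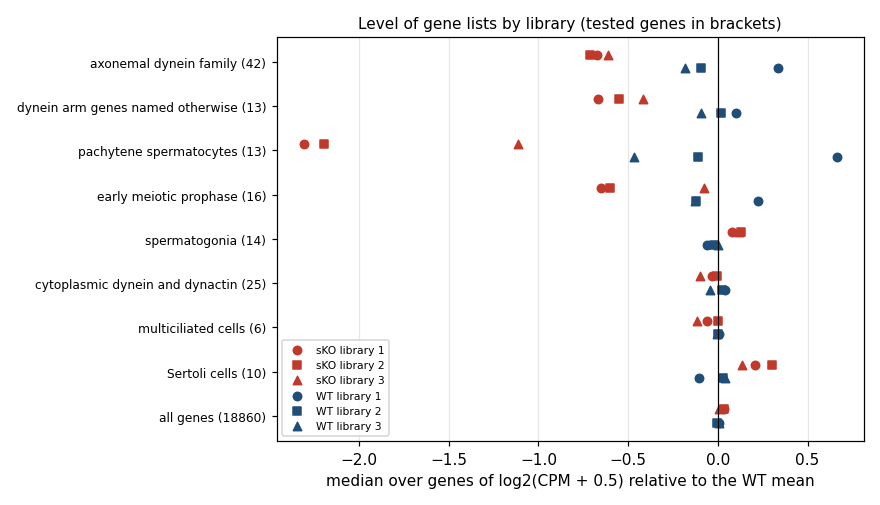
Median over the tested genes of each list of log2(CPM + 0.5) relative to the WT mean, in each sKO (red, upper) and WT (blue, lower) library. The axonemal dynein family lies at -0.71 to -0.61 in sKO and -0.18 to 0.34 in WT, while cytoplasmic dynein and dynactin lie within 0.1 of 0 in all 6 libraries.

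A list headed dynein arm genes named otherwise gave values like those of the family. It is not made of arm genes alone. Dynlrb2 and Dynlt2b are light chains also of cytoplasmic dynein, and Ift46 is a protein of intraflagellar transport. Of its 16 genes, 13 were tested and all 13 had lower estimates, as did 8437 of 18860 tested genes. Clxn, Nme8 and Nme9 missed the low-count filter. Clxn went the other way, with 13, 7 and 6 counts in sKO libraries 1 to 3 and 4, 6 and 1 in WT libraries 1 to 3. Nme8 had 1 to 2 counts per sKO library and 2 to 3 per WT library, and Nme9 had 1 to 5 and 0 to 8. The median log2 fold change was -0.62, and 1 was called lower and 0 higher by edgeR, where 1.27% and 0.0318% of all tested genes were. That gene was Lrrc56, linked to the transport of outer arms, at 16.3, 15.99 and 19.6 CPM in sKO and 29.0, 31.2 and 24.6 CPM in WT. The lowest estimate was that of Dynlrb2, a dynein light chain of the roadblock family, at -2.52 (SE 0.56), on 0.242 to 0.825 CPM in sKO and 1.24 to 4.43 CPM in WT. Daw1 followed at -2.26 (SE 0.53). Dynlt2b had -0.78 and Ift46 -0.12. The general chaperones Ruvbl1 and Ruvbl2, which act in the assembly of many complexes, had -0.10 and -0.29.

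Cytoplasmic dynein, which carries cargo, and dynactin gave other values as a list, apart from the dynein that drives intraflagellar transport. Of 25 genes of cytoplasmic dynein and dynactin, 13 had lower and 12 higher estimates, with a median of -0.05. edgeR called 1 lower and 0 higher, where 1.27% and 0.0318% of all tested genes were. At an unadjusted edgeR p under 0.05, 4 were lower and 1 higher, against 1611 and 954 of 18860 tested genes. DESeq2 called 2 lower and 0 higher, where 3.22% of all genes were lower. For 7 every sKO library lay below every WT library and for 2 above, where 10.7% and 9.58% of all tested genes did. The heavy chain Dync1h1 stood at 866 to 894 CPM in sKO and 860 to 1012 CPM in WT. The called gene was Dync2h1, the heavy chain of the dynein that drives intraflagellar transport, at 44.7, 50.01 and 59.3 CPM in sKO and 91.5, 74.1 and 72.8 CPM in WT. The list's lowest estimate was that of its light intermediate chain Dync2li1, at -0.73 (SE 0.19), and its highest was that of the light chain Dynlt3, at 0.32. Dync2i1 and Dync2i2, intermediate chains of the intraflagellar transport dynein, had -0.37 (SE 0.12) and -0.30 (SE 0.11). All listed chains particular to that dynein thus had lower estimates.

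Among regulators of ciliary and spermatocyte genes, 1 of 11 tested was called lower and 0 higher by edgeR, where 1.27% and 0.0318% of all tested genes were. Rfx2, an X-box binding factor of spermatogenic cells, had 14.0, 14.5 and 22.2 CPM in sKO libraries 1 to 3 and 47.6, 51.8 and 31.5 CPM in WT libraries 1 to 3, with a log2 fold change of -1.37 (SE 0.22). Rfx4 had the lowest estimate, -3.47 (SE 0.68), at 0.240 to 1.26 CPM in sKO and 3.05 to 11.6 CPM in WT, and did not pass. Rfx1 and Rfx3 had 0.06 and 0.08. Mybl1, a relative of Myb, had an estimate of -0.59 (SE 0.20). It stood at 30.9, 28.2 and 41.2 CPM in sKO and 65.1, 38.1 and 48.2 CPM in WT, with overlapping groups. Myb had the highest estimate, 0.43 (SE 0.46), on 10 to 23 counts per sKO library and 8 to 17 per WT library. Of the 11, 5 were lower and 0 higher at an unadjusted edgeR p under 0.05, against 1611 and 954 of 18860 tested genes. DESeq2 called 4 lower and 0 higher, where 3.22% of all genes were lower.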

How the data were processed

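Poly(A) RNA of 3 sKO and 3 WT testis samples was sequenced. The authors deposited whole-number read counts for each gene symbol, made with Trim Galore, HISAT2 and featureCounts on mm39 per the submitters' processing notes, with versions, annotation, strand and multi-mapping settings not given in the sources used here. Columns named con and scKO were read as WT and sKO by replicate number. Overlapping genes and near-identical copies can therefore share reads.

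Counts were tested with edgeR 4.0.16 in R 4.3.3 (filterByExpr, TMM, robust quasi-likelihood F test, sKO over WT, Benjamini-Hochberg over 18860 genes, threshold 0.05); "called" means past that threshold. SEs come from the F statistic, CPM use TMM-scaled library sizes, and SDs are over libraries. Alternatives were DESeq2 1.42.0, limma-voom (limma 3.58.1), RLE factors, no filter, a replicate block and left-out libraries. The scripts were tested on simulated data. Genes, lists, tests and alternatives were chosen with earlier results of these data known. Every row that matched the symbol rule was kept and is accounted for. Genes of other lists are named where edgeR called them. Some that were extreme in their list or stood apart are named too, and others beside them were chosen after their values were seen. Lengths are those of the longest protein-coding transcript in GENCODE M21 (GRCm38), found for 39 of the 43 genes by current or older symbol; promoters are RefSeq GRCm38.p6, a different build from that of the counts. The limit of 3 counts covers counting error only.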

Additional observations from a re-analysis of the deposited data

How the results depend on the processing

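The median log2 fold change of the family kept its sign in all 12 alternative fits (-0.78 to -0.50), but counts of calls depended on the processing and the cause was not tested. Without the low-count filter edgeR called 992 genes lower and 154 higher, and 24 of the family lower. DESeq2 called 714 lower and 56 higher and 21 of the family lower. limma-voom called 0 in either direction and 0 of the family, with 1598 lower and 932 higher at an unadjusted p under 0.05. RLE factors gave 9 of the family, the same genes. Leaving out 1 library gave 0 to 624 genes lower, 0 to 31 higher and 0 to 16 of the family lower, against 240, 6 and 9 with all libraries. In 3 of these fits edgeR called 0 genes lower and 0 of the family. Leaving out both libraries numbered 1 gave 155 genes lower and 6 of the family, 5 of them shared with the 9. The replicate number did not pair the samples (correlations of same-numbered deviations -0.34, 0.12 and -0.28); a fit with the replicate block called 21 genes lower and 0 higher and 0 of the family. Of 502 recomputed fold changes of single members 479 moved by less than 1 SD between libraries, and 0 called ones changed sign. At these depths, a difference could not be estimated closely for Dnah3 (SE 0.60) or Dnah5 (SE 0.73).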
